A study of Mus musculus with 2 samples.

Results

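Intestinal chloride secretion moves fluid from the blood side of the epithelium into the lumen. Chloride enters the cell at the base through a cotransporter, leaves it at the apical side through CFTR, and is driven by potassium that leaves through basolateral channels. The peptides guanylin and uroguanylin, released toward the lumen, bind the receptor guanylyl cyclase C, whose product cGMP activates a kinase that phosphorylates CFTR. In the small intestine, CFTR and the cotransporter are known from the crypts, and the guanylin peptides mostly from differentiated cells nearer the villus.

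The genes described here are 8 members of this system, chosen by symbol from the 19294 genes of the count table, and all 8 were present. They are the ligands Guca2a (guanylin) and Guca2b (uroguanylin), their receptor Gucy2c, the cGMP-dependent kinase Prkg2, the apical chloride channel Cftr, the basolateral sodium, potassium and chloride cotransporter Slc12a2, and the basolateral potassium channels Kcnq1 and Kcnn4. Their mRNA was measured in mouse intestinal organoids, crypt-derived epithelial cultures grown in Matrigel with EGF, Noggin and R-spondin. The control group was 1 untreated culture and the DSS group 1 culture exposed to dextran sulfate sodium, a sulfated polysaccharide that injures epithelium, and both were labelled day 4. The cells of both carried the Lgr5-EGFP-IRES-creERT2 allele, in which EGFP and an inducible Cre are expressed from the Lgr5 locus. The crypts came from jejunum per the study's methods. The DSS concentration of the sequenced culture and the age of the mice are not given in the sources used here.

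Counts summed to 65493032 in the control library and to 59746968 after DSS. With 1 library per condition no difference has a replicate check, so no test was made, and every 95% interval covers counting error only. A level is given in CPM, the counts per 1e6 counts of a library, after scaling with TMM factors, and a change as the log2 ratio of scaled counts, DSS over control. Lines at a log2 ratio of 1 and -1, a 2-fold difference, describe size. RNA came from whole cultures, where fewer cells of a type and less RNA per cell cannot be told apart.

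The guanylin side of the system was higher in the DSS library and the transport side was lower. The ligands Guca2a and Guca2b were 12.0-fold and 13.1-fold higher, the receptor Gucy2c 1.98-fold higher and the kinase Prkg2 2.12-fold higher. Cftr was 4.57-fold lower, Slc12a2 9.51-fold lower, Kcnq1 5.84-fold lower and Kcnn4 8.80-fold lower. Of the 8 genes, 3 had a log2 ratio at or above 1, as did 19.3% of the 17235 genes that reached 10 counts in either library. A further 4 lay at or below -1, as did 20.2% of those 17235 genes. Of all genes past either line, 48.9% were higher, and scaling by total counts made this 37.1%. At the wider lines of 2 and -2, 2 genes were above and 4 below, beside 7.87% and 6.54% of all genes. The median of the 8 ratios was -0.61, between the groups of genes above and below 0, and that of all genes was -0.06.

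**Figure D1:**
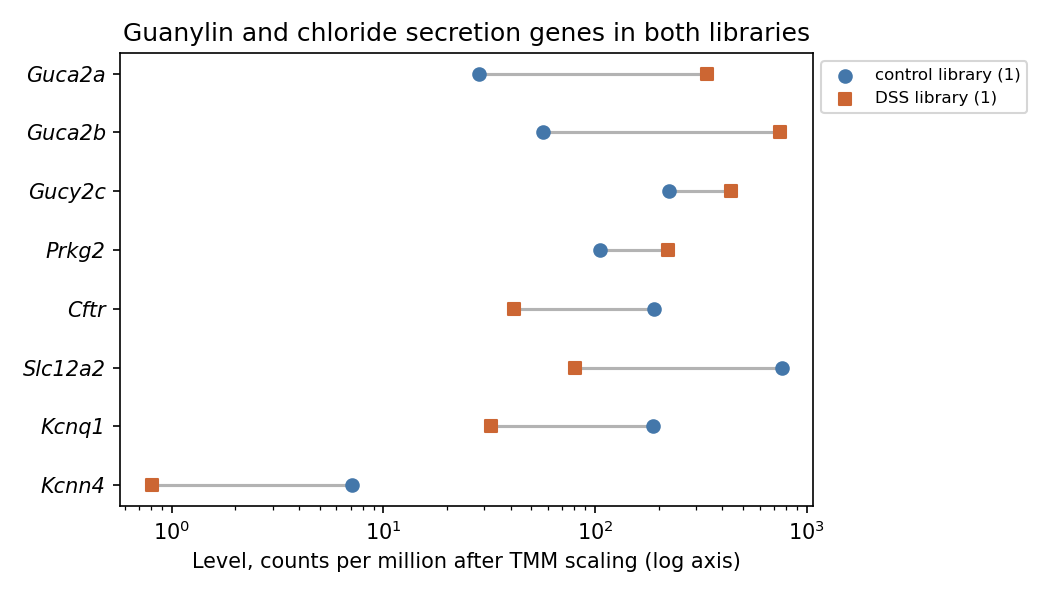
Level of each gene in CPM after TMM scaling, on a log axis, in the control library (circles) and the DSS library (squares), 1 library each. The upper 4 genes, those of guanylin signaling, lie to the right in the DSS library, and the lower 4, those of ion transport, to the left.

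Guca2a and Guca2b lie next to each other on chromosome 4 in the reference assembly. In the GENCODE vM21 annotation of build GRCm38, Guca2a extends from 119637704 to 119639471 on the plus strand and Guca2b from 119656607 to 119658954 on the minus strand. Promoter sequence from RefSeq (GRCm38.p6) was on hand for 4 of the 8 genes, 2 that were higher and 2 that were lower in the DSS library, and each is shown 5′ to 3′ on the strand of its gene for the 250 bases before the RefSeq start, from which positions are counted. For Guca2a and Guca2b that start lies inside the GENCODE gene, so the end of each of these windows overlaps the gene as given above. Capitals mark matches, on either strand, to 1 of 6 short motifs, which were the GATA factor motif AGATAA, the HNF1 motif GTTAAT, the CDX motif TTTATG, the TCF/LEF motif CTTTGA, the GC box GGGCGG of SP and KLF factors, and the TATA box with letters TATAAA. The windows are chr4:119637482-119637731 on the plus strand for Guca2a, chr4:119658946-119659195 on the minus strand for Guca2b, chr6:18170437-18170686 on the plus strand for Cftr and chr7:24370013-24370262 on the plus strand for Kcnn4.
Guca2a: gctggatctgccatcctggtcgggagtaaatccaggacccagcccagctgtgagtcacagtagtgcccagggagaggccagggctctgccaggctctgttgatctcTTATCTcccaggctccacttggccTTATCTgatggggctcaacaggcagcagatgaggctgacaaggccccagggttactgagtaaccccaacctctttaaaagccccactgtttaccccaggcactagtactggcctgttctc
Guca2b: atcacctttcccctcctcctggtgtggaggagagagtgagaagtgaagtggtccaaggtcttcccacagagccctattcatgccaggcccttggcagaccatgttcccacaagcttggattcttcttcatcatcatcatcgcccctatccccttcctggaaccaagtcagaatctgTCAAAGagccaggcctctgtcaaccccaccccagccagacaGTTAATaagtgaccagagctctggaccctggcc
Cftr: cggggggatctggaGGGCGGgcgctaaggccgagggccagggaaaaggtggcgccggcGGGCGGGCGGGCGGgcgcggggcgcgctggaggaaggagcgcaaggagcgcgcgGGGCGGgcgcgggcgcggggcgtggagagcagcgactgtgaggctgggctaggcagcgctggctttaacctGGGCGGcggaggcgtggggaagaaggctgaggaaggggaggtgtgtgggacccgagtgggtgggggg
Kcnn4: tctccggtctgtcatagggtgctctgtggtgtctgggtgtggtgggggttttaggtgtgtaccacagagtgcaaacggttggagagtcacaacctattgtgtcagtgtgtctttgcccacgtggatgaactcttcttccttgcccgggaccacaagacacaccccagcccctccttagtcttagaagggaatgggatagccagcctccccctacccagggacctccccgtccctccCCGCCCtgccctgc

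The ligand promoters shared none of the 6 motifs. Guca2a had 2 matches to the GATA motif, which 9.99% of 32851 promoter windows of the same length held, none of them from chromosome 18. Guca2b had 1 match to the HNF1 motif, from 33 to 28 bases before the start, and 1 to the TCF/LEF motif, which 6.43% and 13.8% of windows held. Cftr had 6 matches to the GC box, several of them overlapping, and Kcnn4 had 1, where 32.7% of windows held at least 1. The Cftr window was 76.4% G and C, a higher share than in 97.0% of windows, against 57.2% for Guca2a, 54.4% for Guca2b and 58.8% for Kcnn4. CDX motifs were in 10.8% and TATA boxes in 12.4% of windows, and in none of these 4. The motifs were chosen after the values of the genes were seen. A match describes letters and not binding.

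Guca2a, the gene of guanylin (NCBI gene 14915), was read 2032 times in control and 18593 times after DSS. These were levels of 28.4 and 340.1 CPM, and the log2 ratio was 3.58 (interval, 3.52 to 3.65). Guca2b, the gene of uroguanylin (NCBI gene 14916), was read 4079 times in control and 40868 times after DSS. Its levels were 57.0 and 747 CPM, with a log2 ratio of 3.71 and an interval from 3.67 to 3.76. In the ranking of all 17235 genes by ratio, Guca2b was number 264 and Guca2a number 308 from the top.

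The ligands changed almost in step. Their log2 ratios differed by 0.13, with an exact interval from 0.05 to 0.21 that does not depend on library scaling, so the small excess of Guca2b was larger than counting error. Per kilobase of transcript, the level of Guca2b was 1.83 times that of Guca2a in the control library and 2.01 times in the DSS library. Summed over both ligands, the level was 85.4 CPM in control and 1088 CPM after DSS, for a log2 ratio of 3.67.

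Gucy2c encodes guanylyl cyclase C, the receptor of both peptides, also bound by a heat-stable toxin of Escherichia coli. It lies on chromosome 6 from 136697284 to 136781765. It had 15940 counts in the control library and 24056 in the DSS library, or 222.7 and 440.0 CPM. The log2 ratio was 0.98 (interval, 0.95 to 1.01), so it was just inside the line of 1. Prkg2, on chromosome 5 from 98929773 to 99037351, encodes the membrane-bound cGMP-dependent kinase that links the receptor to CFTR. It had 7525 and 12174 counts, or 105.1 and 222.7 CPM, for a log2 ratio of 1.08 (interval, 1.04 to 1.12), just outside the line.

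Receptor and kinase stood close together, both near 2-fold, and well short of their ligands. The log2 ratio of Gucy2c was lower than that of Prkg2 by a difference of -0.10, with an interval from -0.15 to -0.05. About 80.4% of all genes had a lower ratio than Gucy2c and 82.1% a lower ratio than Prkg2, whereas 98.2% and 98.5% had a lower ratio than Guca2a and Guca2b. Library scaling moved the receptor and the kinase across the line of 1. With total counts they were at 0.73 and 0.83, and with upper quartile factors at 1.07 and 1.17.

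**Figure D2:**
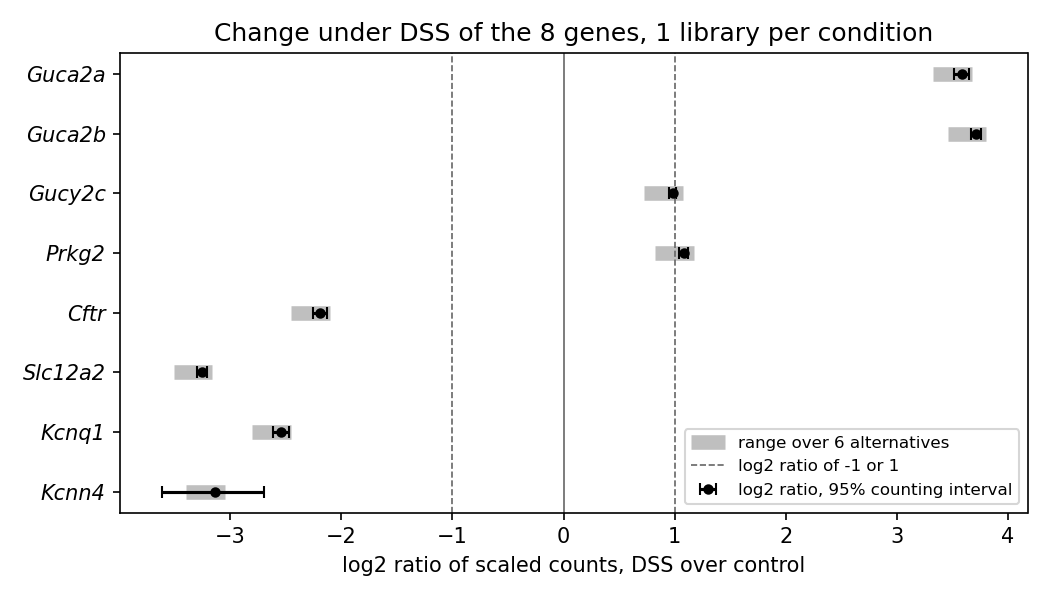
Log2 ratio of scaled counts, DSS over control, for each gene, with its 95% counting interval (black) and the range over 6 alternative scalings and counts (grey bars). Dashed lines mark ratios of -1 and 1, and all grey bars stay on their side of 0.

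Cftr, on chromosome 6 from 18170687 to 18322768, encodes the cAMP- and cGMP-regulated channel through which chloride leaves the cell at the apical side. It had 13606 counts in the control library and 2272 in the DSS library, or 190.1 and 41.6 CPM. The log2 ratio was -2.19 (interval, -2.26 to -2.13), and 5.23% of all genes had a lower one.

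Slc12a2 encodes the basolateral cotransporter NKCC1, which loads the cell with chloride, and is also used as a crypt marker. It lies on chromosome 18 from 57878678 to 57946821. Its counts were 54589 in the control library and 4386 in the DSS library. The levels were 763 and 80.2 CPM and the log2 ratio was -3.25 (interval, -3.29 to -3.20), a value within the wider interval of Kcnn4. The gap between exit and entry was larger than counting error, since the ratio of Cftr lay 1.06 above that of Slc12a2, with an interval from 0.98 to 1.13.

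Kcnq1, on chromosome 7 from 143106362 to 143427042, encodes the basolateral potassium channel that serves cAMP-driven secretion. It had 13518 counts in the control library and 1768 in the DSS library, or 188.9 and 32.3 CPM, for a log2 ratio of -2.55 (interval, -2.62 to -2.47). Kcnq1 overlaps annotated transcripts of the opposite strand, Kcnq1ot1 among them, which are not analysed here. The libraries were stranded, but the counting is not stated to use strand, and then reads of such partners cannot be told apart from those of Kcnq1.

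Kcnn4, on chromosome 7 from 24370263 to 24386690, encodes the calcium-activated potassium channel that serves calcium-driven secretion. It had the lowest level per length of the 8 genes in both libraries, and had 507 counts in the control library and 44 in the DSS library, or 7.08 and 0.805 CPM. The log2 ratio of Kcnn4 was -3.14, with the widest interval of the 8, from -3.62 to -2.69. The ratio of Kcnq1 lay 0.59 above it, with an interval from 0.14 to 1.08. Together the genes of Cftr, Slc12a2 and both channels had 82220 and 8470 counts and a log2 ratio of -2.89 (interval, -2.92 to -2.86). Of these counts 54589 and 4386 were of Slc12a2, so the sum mostly reflects that gene. The single ratios ran from -3.25 to -2.19, and the narrow interval does not describe a common change.

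**Figure D3:**
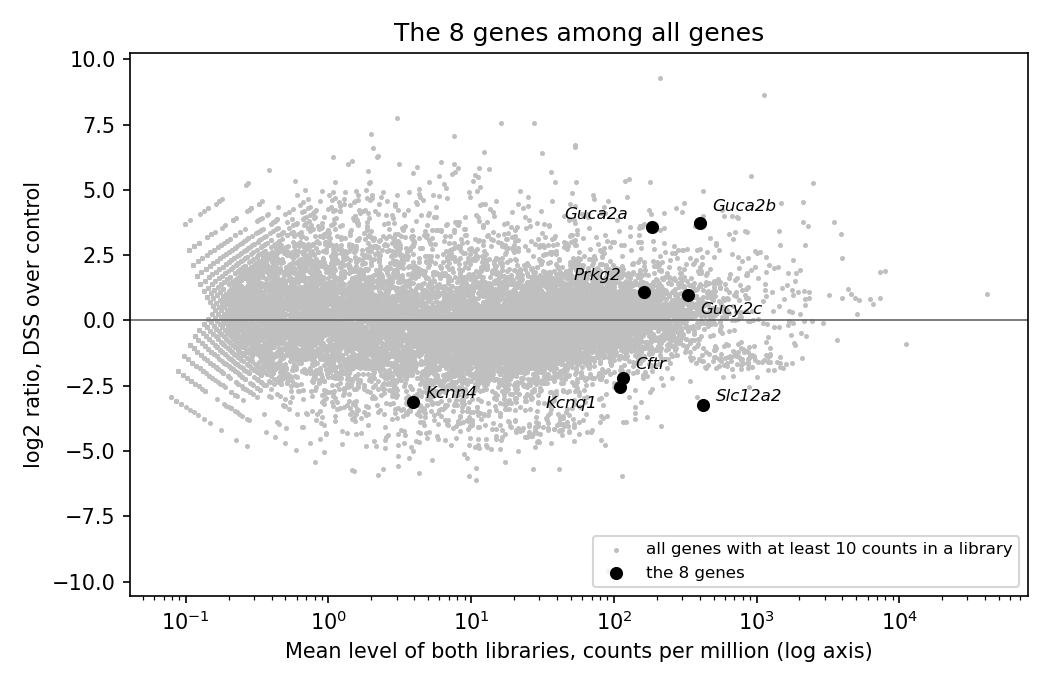
Log2 ratio, DSS over control, against the mean level of both libraries in CPM on a log axis, for all 17235 genes that reached 10 counts in either library (grey) and the 8 genes (black). Guca2a and Guca2b lie high among genes of their level, Slc12a2 and Kcnn4 low among theirs, and Gucy2c and Prkg2 within the main cloud.

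The order of the genes by level differed between the libraries mainly for Guca2a, which stood higher after DSS, and for Slc12a2 and Kcnq1, which stood lower, and with the longest transcripts also for Prkg2, which stood higher. Levels of different genes were compared per kilobase of annotated coding transcript, as CPM per kilobase. In the DSS library Guca2b came first with 1148 and Guca2a second with 573, followed by Gucy2c with 113 and Prkg2 with 111, and Cftr (9.57), Slc12a2 (12.3) and Kcnn4 (0.414) were low. In the control library Slc12a2 had 117, Guca2b 87.5, Gucy2c 56.9, Prkg2 52.5, Guca2a 47.8, Cftr 43.8 and Kcnn4 3.64. The values of Kcnq1 and Prkg2 depend most on the length used. With the longest transcript, Cftr was at 30.2 in control and 6.59 after DSS, and Guca2b at 81.8 and 1072. Kcnq1 was at 642 in control and 110.0 after DSS with the median length of 294 bp over its 7 coding transcripts, but at 62.4 and 10.7 with the longest, of 3029 bp. Prkg2 was at 21.2 in control and 44.8 after DSS with its longest transcript. With the longest transcript of each gene, Slc12a2 was first and Guca2b second in the control library, and Guca2b and Guca2a were first and second in the DSS library. With 1 library per condition the order has no spread between cultures, so neighbours in it are not set apart. In the control library Gucy2c and Prkg2 were neighbours only with the median length, where the level of Gucy2c was 1.09 times that of Prkg2, against 2.66 times with the longest transcripts.

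Other genes of the pathway were taken from 8 lists by role, 89 genes in all, of which 79 reached 10 counts in either library. Of these, 22 (27.8%) lay at or above a log2 ratio of 1 and 10 (12.7%) at or below -1, beside 19.3% and 20.2% of all genes, and their median was 0.03. The tally depends on the scaling, as do the shares over all genes. By total counts 15 lay at or above 1 and 13 at or below -1, beside 15.4% and 26.2% of all genes. By upper quartile factors these were 25 and 9, beside 21.2% and 18.3% of all genes. In the cGMP arm, 3 of 7 genes lay at or above 1 and none at or below -1, with a median of 0.84. All 3 are phosphodiesterases, which break down cyclic nucleotides, namely Pde2a at 1.91, Pde1c at 1.58 and Pde9a at 1.02. Pde5a, which degrades cGMP, was at 0.66 and Pdzd3, a scaffold that binds the receptor, at 0.84. Prkg1, Pde10a and the soluble guanylyl cyclase genes Gucy1a1 and Gucy1b1 are not in the table, which lists genes with at least 1 count in both libraries.

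In the cAMP arm, 12 of 16 genes lay between the lines, beside 10419 of all 17235 genes, and the median was -0.12. Gnas, the stimulatory G protein, had levels of 556.1 CPM in control and 555.0 CPM after DSS, and Prkaca, the main catalytic subunit of protein kinase A, was at -0.01. Vipr1, a receptor of the secretagogue VIP, was at 3.59 and rested on 208 and 1912 counts. Adora2b, an adenosine receptor, had 4 and 35 counts, for a ratio of 3.52 with an interval from 2.03 to 5.47. Pde3b was at -2.06, and Adcy3, with 47 and 3 counts, at -3.58 with an interval from -5.91 to -1.95. Ptger4, the prostaglandin E receptor EP4, was at 0.95.

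Of 12 genes for CFTR scaffolds and traffic, 4 lay at or above 1 and 3 at or below -1, on both sides of 0. These were 33.3% and 25%, beside 19.3% and 20.2% of all genes. The scaffold Pdzk1 had 232 and 3214 counts and a log2 ratio of 4.18, and the related scaffold Slc9a3r1 (NHERF1) was at 1.61. The family member Slc9a3r2 (NHERF2) had 163 and 23 counts, for a log2 ratio of -2.44 (interval, -3.13 to -1.80). The brush border motor Myo1a was at 3.17 and Myo5b, which carries apical vesicles, at 1.42. Shank2 was at -2.28 and Ahsa1, a cochaperone of HSP90, at -1.16.

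Of 7 genes listed as other apical ion transporters, 5 lay at or above 1 and none at or below -1, with a median of 1.18. The place of their proteins in the cell was not measured, and not all of them need be apical. The shares over all genes were 19.3% and 20.2%. The sodium/hydrogen exchanger Slc9a3 (NHE3), which absorbs sodium and is inhibited through cGMP, had 1233 and 4422 counts and a log2 ratio of 2.23 (interval, 2.14 to 2.32). The anion exchangers Slc26a6 and Slc26a3 were at 2.08 and 1.42 and Ano6 at 1.18, and the chloride channel Clcn2 lay at the line of 1 with 4720 and 7218 counts. Ano1, the calcium-activated chloride channel, was at -0.99.

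At the basolateral side, the sodium pump subunit Atp1b1 was at 1.09, and 8 of the 11 genes on this list lay between the lines. Over all genes, 10419 of 17235 did. Wnk4, a kinase of the pathway that regulates the cotransporter, was at -1.06 and its target Stk39 at -0.73. Among 7 potassium channel genes, 3 lay at or above 1 and 2 at or below -1, beside 19.3% and 20.2% of all genes. Kcne3, the subunit that joins Kcnq1 in the intestine, had 433 and 32 counts and a log2 ratio of -3.37 (interval, -3.94 to -2.85). Kcnk6 was at 2.86, Kcnk5 at 1.21 and Kcnma1 at 1.21, while Kcnj15 had 17 and 2 counts and was at -2.70.

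In the calcium arm, 8 of 10 genes lay between the lines, beside 10419 of all 17235 genes. Outside the lines were Gna11 at 1.64 and the calcium release channel Itpr2 at -1.94. Orai1, the store-operated calcium channel, was at 0.85 and Chrm3, the muscarinic receptor of the epithelium, at -0.37. Among 9 epithelial transcription factors the median was -0.04. Cdx2, which is known to bind the promoter of Gucy2c, was at -1.35, and Hnf4g and Klf4 were at 2.24 and 1.47. Hnf4a at 0.05 and Gata4 at -0.18 lay close to 0.

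**Figure D4:**
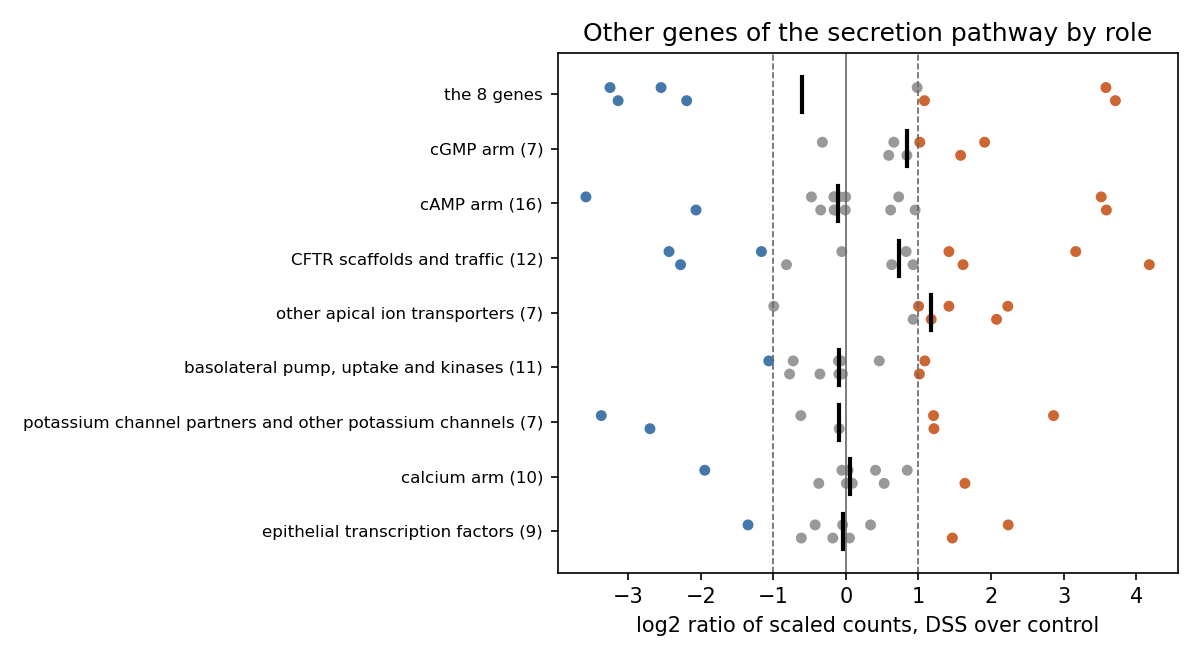
Log2 ratio, DSS over control, of each measured gene by role list, with the number of genes in brackets. Points at 1 or more are orange, those at -1 or less blue and the rest grey, and black bars are medians. The 8 genes split into groups on either side of 0, while the genes listed as other apical ion transporters lie mostly above it.

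Markers of intestinal cell types also differed between the libraries. The labels call the cells intestinal stem cells, and the control library held stem cell markers beside those of differentiated cells. All 7 epithelial identity markers were abundant in both libraries, from 70.4 to 1677 CPM in control and from 471 to 3010 CPM after DSS, with summed levels of 5226 and 8321 CPM. Of these 7, 2 were at 1 or more, Krt20 at 3.99 and Vil1 at 1.25, and none at -1 or less, with a median log2 ratio of 0.04. All 8 enterocyte markers were at 1 or more and their summed level went from 2789 to 25775 CPM. All 7 goblet cell markers were at 1 or more, and their sum went from 756 to 11378 CPM. Of 6 enteroendocrine cell markers, 5 were at 1 or more, with sums of 792 and 4021 CPM. Muc2 was at 4.98, Chga at 2.60 and Vil1 at 1.25 in these libraries. The study's RT-PCR of DSS-treated organoids instead reported Muc2, Chga and Vil1 at similar levels. It reported Lgr5 and Lyz lower, the direction also seen here, with Lgr5 at -3.78 and Lyz1 at -1.06. Whether it used the same cultures is not stated.

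All 6 stem cell markers were at -1 or less, with summed levels of 923.9 and 149.7 CPM. Of 5 Paneth cell markers, 3 were at -1 or less and none above 0, with sums of 498 and 243 CPM. Over all genes, 20.2% were at -1 or less and 8963 of 17235 were below 0. The 4 measured tuft cell markers were all below 0 and 2 were at -1 or less, with sums of 8.87 and 4.39 CPM. Among them Avil was at -0.08, with an interval from -0.47 to 0.30 that held 0. The direction of Guca2a and Guca2b was that of the enterocyte and goblet cell markers and of 5 of 6 enteroendocrine cell markers. The direction of Cftr, Slc12a2, Kcnq1 and Kcnn4 was that of the stem cell and Paneth cell markers and of the tuft cell markers other than Avil. Direction alone thus singles out no cell type. The part of these cell type markers in the ratios of the 8 genes was not tested. Mesenchymal markers had summed levels of 0.461 and 0.805 CPM over 2 measured genes, Acta2 at a log2 ratio of 2.71 on 4 and 20 counts and Col1a1 at 0.12, with Col1a2, Col3a1, Dcn and Lum not in the table. The immune markers Ptprc and Cd3e are not in the table either, and Itgam, Cd68 and Csf1r together had 12.2 and 23.3 CPM.

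**Figure D5:**
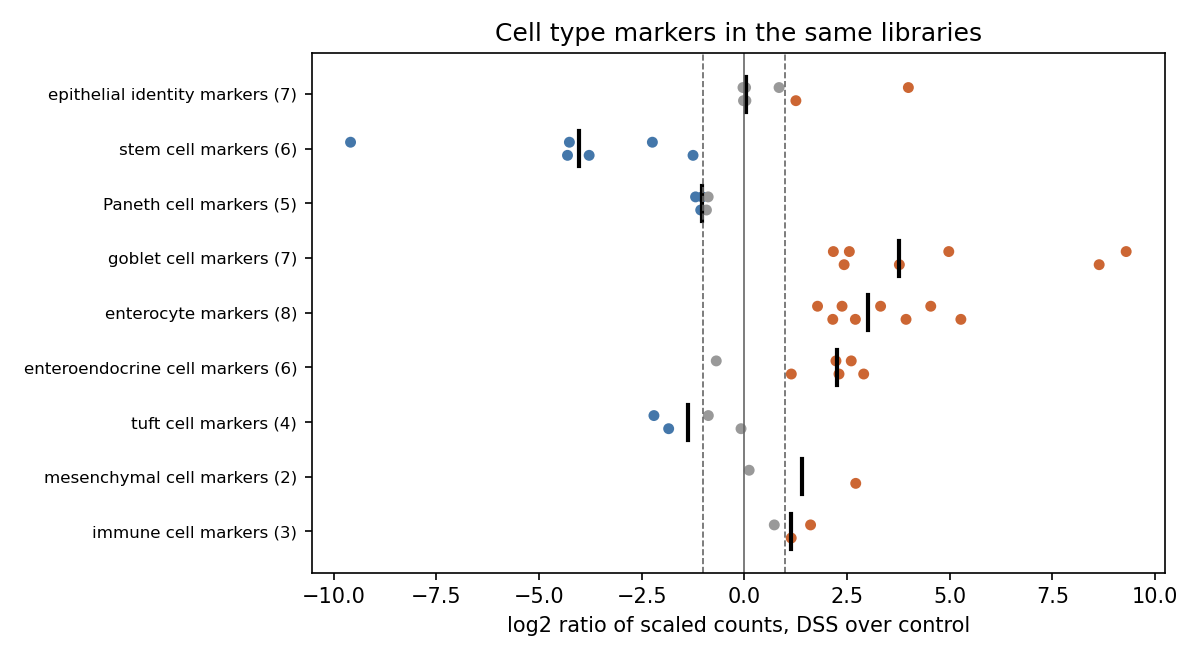
Log2 ratio, DSS over control, of each measured cell type marker, with the number of genes in brackets, colours as for the role lists and black bars for medians. Stem cell markers lie at or below -1.25, while goblet cell and enterocyte markers lie at or above 1.78.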

How the data were processed

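mRNA-seq was performed on 1 control and 1 DSS-treated organoid culture with stranded poly(A) libraries. The authors deposited raw counts per gene, without normalization. The submitters' processing notes name HISAT2 and StringTie, with no version, and the genome build is not given in the sources used here. The files of the single samples are named for FPKM but hold the same counts for all 19294 genes. Genes without counts in 1 of the libraries are not listed, so a gene lost entirely could not be seen.

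Counts were scaled with TMM factors of edgeR 4.0.16 (R 4.3.3), 1.09 for control and 0.915 for DSS. Ratios have exact Clopper-Pearson 95% intervals, and 4 pairs of genes with related roles were compared by the conditional odds ratio of their counts, both with scipy 1.17.1. Tallies of genes used those that reached 10 counts in either library. Transcript lengths were medians over coding transcripts of GENCODE vM21, matched by symbol. The ratio and interval computation was tested on simulated data. Scaling was repeated by total counts, by upper quartile, with the median-ratio factors of DESeq2 1.42.0 and with TMM on genes that reached 10 counts in each library. Other alternatives were a prior of 2 counts, thinning the control library to the DSS total, other count minimums, a line of 2 and the longest transcript.

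The 8 genes and all lists were chosen with earlier results of these data known, and motifs and neighbouring genes after the values were seen. Named genes are the 8, up to 3 per role list with the largest absolute ratio that reached 50 counts in either library, and any gene of a count of 5 or fewer. Pde5a, Pdzd3, Gnas, Prkaca, Stk39, Chrm3, Hnf4a, Gata4, Ano1, Krt20, Vil1, Acta2 and Col1a1 were named after their values were seen, for their roles. Muc2, Chga, Lgr5 and Lyz1 were also named after their values were seen, because the study's RT-PCR measured them. Some genes of the lists are not reported here by name.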

Additional observations from a re-analysis of the deposited data

How the results depend on the processing

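The direction of all 8 genes was the same under the 6 alternatives of scaling, prior count and thinning, in 48 of 48 values. A scaling alternative shifts all genes by 1 amount, smaller here than any of the 8 ratios, so it could not reverse a direction. The prior and thinning change counts of this size little. The 48 values are therefore no check of the directions. Ratios ran from 3.33 to 3.67 for Guca2a, from 3.46 to 3.80 for Guca2b, from -2.45 to -2.10 for Cftr, from -3.51 to -3.16 for Slc12a2, from -2.80 to -2.46 for Kcnq1 and from -3.39 to -3.05 for Kcnn4. Total counts shift every gene alike, which took the median of all genes from -0.06 to -0.31 and the share of higher genes among those past either 2-fold line from 48.9% to 37.1%. The median of the 8 genes was then -0.86, and it was -0.52 with upper quartile factors. The number of the 8 genes at 1 or more was 2 with total counts, and 4 with upper quartile factors or with TMM on genes that reached 10 counts in each library, since Gucy2c and Prkg2 lie at the line, while the number at -1 or less was 4 throughout. The shares of all genes at 1 or more were 15.4%, 21.2% and 19.9% in these 3 settings, and at -1 or less 26.2%, 18.3% and 19.6%. The 4 differences within pairs, in which scaling cancels, stayed inside their counting intervals in 8 of 8 values. These came from the prior and thinning alone, so they are a weak check. The longest transcript changed the place of 6 of the 8 genes in the control library by level per kilobase and of 2 in the DSS library. Depth limits mainly Kcnn4, with 44 counts in the DSS library. No paired analysis was possible because each condition has 1 library.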

Other observations

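The nearest listed protein-coding genes beside each of the 8, by RefSeq order, were examined as values. The ligand genes neighbour each other, between Foxj3, at a log2 ratio of 0.85, and Hivep3, which had 9 and 32 counts. Beside Prkg2, both Bmp3, a growth factor of the BMP family, at 1.85 and Rasgef1b, with 1126 and 2427 counts, were higher in the DSS library. Beside Gucy2c, Plbd1 was at -0.01 and Wbp11 at -0.84. Beside Cftr, both St7 at -1.61 and Cttnbp2 at -4.57 were lower, and Cttnbp2 had 343 and 11 counts. Beside Slc12a2, Prrc1 was at 0.08 and Slc27a6, with 16 and 4 counts, at -1.61. Kcnq1 lies between Trpm5, a tuft cell channel, at -0.88 and Cdkn1c, a cell cycle inhibitor, at 0.96. Kcnn4 lies between Lypd5, with 4 and 27 counts, and Smg9 at -0.70.

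Processed pseudogenes overlap Cftr and Prkg2 on the same strand and are counted separately. Gm15595 within Cftr had 5 and 8 counts, and Gm3470 within Prkg2 had 6 and 1.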
